A study of Mus musculus with 24 samples.

Results

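The melanocyte lineage genes described here are 7 genes of pigment cells, Dct, Mlana, Pmel, Tyrp1, Mitf, Kit and Ednrb, out of 37074 gene names on the array. Each was taken by its gene name in the scanner files and followed through its brightest probe, the one with the highest mean over all 24 arrays, and its other probes served as a check. The 7 genes had 18 probes, of which 16 were tested. The samples were nerve fibres of C57BL/6 mice of both sexes at postnatal day 0 (P0) and at ages of 1 W, 3 W or 5 W (W, week), with no transgene or treatment in any group. Efferent nerve fibres (EN) run in the ventral root and are mainly axons of motor neurons, and afferent nerve fibres (AN) run in the dorsal root and are mainly central axons of dorsal root ganglion neurons. Each of the 8 groups had 3 one-colour arrays. Per the study's methods, the fibres of a group were collected together from several animals, so an array may stand for pooled tissue. The methods also speak of 3 independent experiments per group, and nothing in the labels says which animals an array holds. The p-values measure the spread between these arrays, which may be technical. The labels name the tissue as L4-L6 spinal cord segments with AN or EN fibres as the subtype.

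Melanocytes make pigment in melanosomes, and they arise from the neural crest, as Schwann cells, the glia of peripheral nerves, do. Part of the pigment cells of the skin descend from Schwann cell precursors that travel along growing nerves. Mitf is the transcription factor that directs the lineage, Kit and Ednrb are receptors through which the signals Kit ligand and endothelin 3 reach its precursors, and Pmel, Mlana, Dct and Tyrp1 are melanosome proteins. Several of these genes are also used outside pigment cells: Kit in mast cells and in some neurons, Ednrb in immature Schwann cells, and Mitf in macrophages and mast cells.

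Mitf binds the letters CATGTG, read as CACATG on the other strand, and the promoters of its target genes often hold them, so the promoter windows of the members were searched for these letters on both strands. RefSeq promoter windows (GRCm38.p6, 250 bases before to 50 after a gene's start) were at hand for 5 of the 7 genes. The letters were found in the windows of Dct and Tyrp1, and not in the 3 windows of Mitf, the 2 of Kit or the 1 of Ednrb. In the whole table, 14.2% of 32851 windows held them. The longer form TCATGTG, read as CACATGA on the other strand and always containing the shorter one, was in both the Dct and the Tyrp1 window and in 3.77% of all windows. The Dct window is chr14:118052197-118052496 on the minus strand and the Tyrp1 window chr4:80833963-80834262 on the plus strand. Both are shown with every CATGTG or CACATG in capitals.

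Dct: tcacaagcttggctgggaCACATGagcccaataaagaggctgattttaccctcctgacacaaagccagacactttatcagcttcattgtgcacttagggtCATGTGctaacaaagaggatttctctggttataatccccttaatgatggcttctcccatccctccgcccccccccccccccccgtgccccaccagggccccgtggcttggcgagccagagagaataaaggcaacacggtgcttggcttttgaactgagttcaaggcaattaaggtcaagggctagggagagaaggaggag
Tyrp1: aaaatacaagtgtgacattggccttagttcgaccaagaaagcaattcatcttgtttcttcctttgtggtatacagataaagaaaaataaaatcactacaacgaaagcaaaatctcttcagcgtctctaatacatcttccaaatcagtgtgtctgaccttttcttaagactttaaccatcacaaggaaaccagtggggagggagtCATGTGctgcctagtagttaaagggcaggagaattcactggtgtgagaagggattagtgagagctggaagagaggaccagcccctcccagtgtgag

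The letters of a probe define what it measures, and 4 probes that read through without a stop codon in at least 1 frame are shown because the results on Dct, Pmel, Tyrp1 and Ednrb turn on them or on their agreement with a gene's other probes. All are 60 bases long. The first belongs to the brightest Dct probe, the second to the only Pmel probe, the third to the dimmest Tyrp1 probe and the fourth to the second Ednrb probe.

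Dct: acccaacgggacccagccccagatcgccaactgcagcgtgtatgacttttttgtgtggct
Pmel: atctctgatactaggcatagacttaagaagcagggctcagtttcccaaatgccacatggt
Tyrp1: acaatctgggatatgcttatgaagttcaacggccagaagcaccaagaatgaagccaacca
Ednrb: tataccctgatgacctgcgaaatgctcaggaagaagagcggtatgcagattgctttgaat

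The values below are the log2 signals of the deposited table, and a difference between groups is a difference of mean log2 signals, so that 1 stands for 2-fold. Levels of different genes are not set against each other, because probes differ in brightness. A probe was counted as above background on an array where the scanner software marked it well above background. Testing was limited to the 36409 probes with a complete group, that is all 3 of its arrays, above background, and a probe was called where limma's p-value after Benjamini-Hochberg adjustment was below 0.05 and the fold change above 2. The median scanner signal of an array ranged from 45.4 to 191, and 55.1% to 71.7% of the gene probes of an array were above background. The arrays lay on 4 slides. All 3 W arrays and replicate 3 of both 5 W groups shared slide 4, so age and slide are largely mixed in comparisons with 3 W, while the AN and EN array of a replicate number always shared a slide.

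The name of the gene set was checked against other pigment genes. Of 13 further melanosome and pigment genes, Mc1r, the receptor that switches on eumelanin, and Oca2 and Slc45a2, which regulate the melanosome's interior, were above background on 0 of 24 arrays. Tyr, the rate-limiting enzyme of melanin synthesis, was above background on 24 arrays, with group means of 5.67 to 6.78. Slc24a5, an ion exchanger of the melanosome, was above background on 24 arrays and Trpm1, a channel gene first described in melanocytes, on 23. Gpr143, a melanosome receptor, was above background on 9 arrays and Mlph, which links melanosomes to their motor, on 11. Mlana, a melanosome protein used as a melanocyte marker, was above background on 9 of 24 arrays by its brightest probe and on 1 by its other probe, and no group had all 3 arrays above background, so Mlana was not tested. Rab32, Rab38 and Myo5a, which cells other than melanocytes also use, were above background on 24 arrays. Pigment genes were thus detected in part, some on all arrays and some on none. The 7 genes are therefore called by their names below, and not read as the amount of melanocytes. In such bulk samples, fewer cells of a type and less RNA per cell cannot be told apart.

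**Figure D1:**
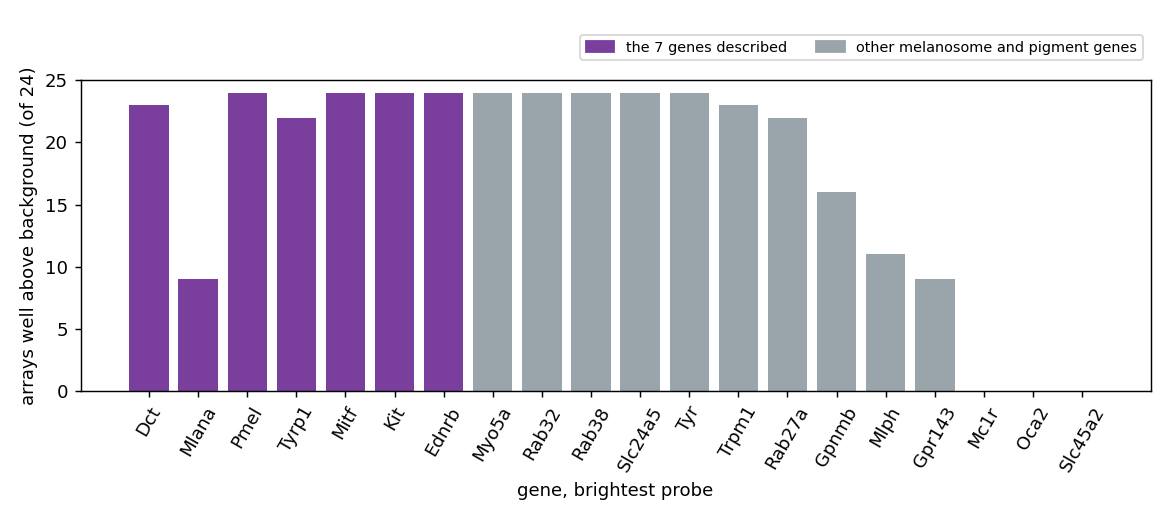
Number of arrays, of 24, on which the brightest probe of each gene was well above background, for the 7 melanocyte lineage genes (purple) and 13 other melanosome and pigment genes (grey). Mlana reached 9 arrays, and Mc1r, Oca2 and Slc45a2 reached 0.

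Tyrp1, an enzyme-like melanosome protein that stabilises tyrosinase, showed the largest afferent excess of the 6 tested genes at each age after P0. At P0 its 3 afferent arrays read 10.09, 10.32 and 8.73 and its 3 efferent arrays 9.18, 8.78 and 9.62, and the groups overlapped. At 1 W the afferent arrays read 10.25, 10.31 and 10.34 and the efferent arrays 6.84, 6.44 and 7.0. At 3 W the afferent arrays read 9.54, 9.56 and 11.51 and the efferent arrays 5.80, 6.35 and 6.71. The afferent arrays were all above the efferent arrays at 1 W and at 3 W. At 5 W the afferent arrays read 8.85, 7.98 and 9.48 and the efferent arrays 3.83, 4.94 and 5.54, of which only the last was above background. The AN-EN difference was 0.52 ± 0.53 (SE, n = 3 arrays per group) at P0, adjusted p = 1 by limma. It was 3.54 ± 0.53 at 1 W (adjusted p = 0.0015), 3.92 ± 0.53 at 3 W (adjusted p = 0.00019) and 4.00 ± 0.53 at 5 W (adjusted p = 0.00013).

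Over time the Tyrp1 signal fell in the efferent fibres, and by its brightest probe no afferent change from P0 passed the test. Against P0, the efferent level fell by 2.43 at 1 W, by 2.90 at 3 W and by 4.42 at 5 W, all called. The afferent differences from P0 were 0.59, 0.49 and -0.94. At 5 W the afferent signal was called lower than at P0 without the arrays of slide 4 (-1.29), without P0 AN replicate 3 (-1.43) and by the second probe (-1.27, adjusted p = 0.038), and by the third probe it was at least 1.92-fold lower (adjusted p = 0.0069), a bound that rests on 2 P0 arrays above background. The AN-EN difference itself was larger than at P0 by 3.40 ± 0.75 at 3 W (adjusted p = 0.047) and by 3.48 ± 0.75 at 5 W (adjusted p = 0.028), and both values are close to the threshold. At 1 W it was larger by 3.02 ± 0.75 and did not pass (adjusted p = 0.21), whereas it did with the AN and EN arrays of a number as a random block, with array weights, without the arrays of slide 4, before adjustment, and without 3 W AN replicate 3. The 3 W call was lost when any 1 of 18 of the 24 arrays was left out, and was kept without 3 W AN replicates 1 or 2, 5 W AN replicates 2 or 3, or 5 W EN replicates 1 or 3. The 5 W call was lost without P0 AN replicate 3, P0 EN replicates 1 or 3, 5 W AN replicate 1, or 5 W EN replicates 1 or 2, and both calls were lost with no filter on dim probes and with either other probe. With normexp background correction the 5 W value was 1.92 and was not called. Without the single arrays the size of the difference lay between 2.74 and 3.73 for 3 W and between 2.99 and 3.87 for 5 W. The 5 W AN-EN call was also lost when only the 6 arrays of that age were fitted.

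The other Tyrp1 probes were dimmer. The second probe, for which the files give no position on the genome, was above background on all 3 afferent and on no efferent array at 1 W, 3 W and 5 W. Its afferent signal was at least 5.58-fold higher at 1 W (adjusted p = 0.0017), at least 4.45-fold at 3 W (adjusted p = 0.00018) and at least 1.85-fold at 5 W (adjusted p = 0.00083). These bounds set the afferent mean against the lowest signal still above background on the efferent arrays. The third probe, whose letters are shown above, was above background on 6 arrays and on no efferent array at any age. At 1 W its afferent signal was at least 1.30-fold higher (adjusted p = 0.011). At 3 W it was above background on 1 afferent array and at 5 W on none, so it gives no difference there. Over 24 arrays the brightest probe correlated with the second at r = 0.96 and with the third at r = 0.74.

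Genes of sensory neurons were also called higher in AN after P0. Fewer of them were called at 3 W and 5 W than at 1 W, and their summed signal spread more widely over the AN arrays at these 2 ages. A list of 7 such genes (Avil, Calca, Isl1, Prph, Scn10a, Tac1 and Trpv1), all tested, held 7 called higher in AN at 1 W, 2 at 3 W and 1 at 5 W. Of all tested probes, 2.79% were called at 1 W in either direction, and 2.23% and 2.49% were called higher at 3 W and 5 W. The median differences of the 7 genes were 4.97, 3.54 and 1.49 against -0.06, -0.03 and -0.03 over all tested probes. Their summed signal on the log2 scale ran from 14.98 to 16.65 in P0 AN, from 14.85 to 15.61 in P0 EN, from 16.14 to 16.47 in 1 W AN and from 10.43 to 12.03 in 1 W EN. At 3 W it ran from 12.47 to 17.81 in AN and from 10.55 to 11.29 in EN, and 3 W AN replicate 3 had both the highest summed signal and the highest Tyrp1 signal of all 24 arrays. At 5 W it ran from 10.75 to 14.64 in AN and from 10.96 to 11.58 in EN. In 5 W replicate 3 the summed signal of the list was lower in AN than in EN by 0.82 on the log2 scale, and Tyrp1 was higher in AN by 3.94. The brightest genes weigh most in such a sum, so it need not follow each gene of the list. The 12 pairs of arrays show both measures. In P0 replicate 3 both were lower in AN, Tyrp1 by 0.88 and the list by 0.64. The log2 values of the 7 genes were also standardised over the 24 arrays and averaged. This mean level, which is not the summed signal, correlated with Tyrp1 at r = 0.82, as a description. Beyond these values the part of neuronal RNA in the Tyrp1 differences was not tested.

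**Figure D2:**
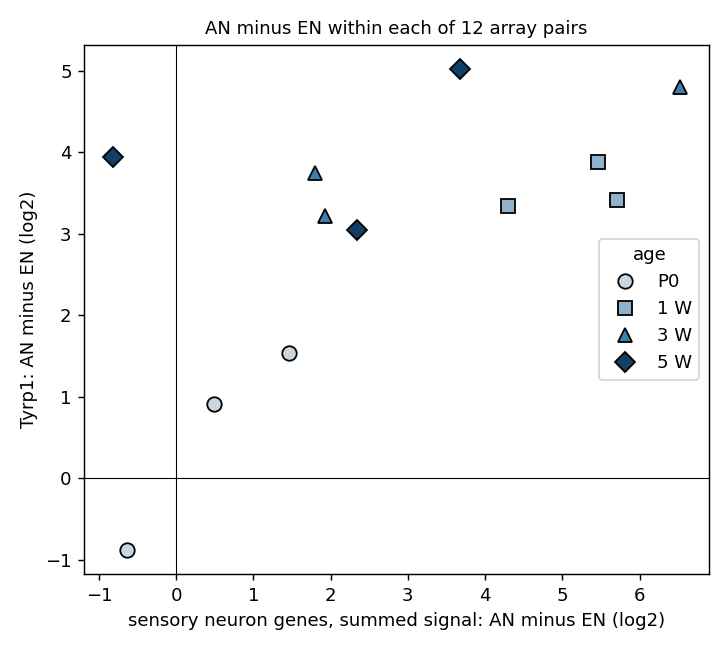
AN minus EN difference of Tyrp1 (vertical axis, log2) against that of the summed signal of 7 sensory neuron genes (horizontal axis, log2) in the 12 pairs of AN and EN arrays of an age and replicate number. Tyrp1 was above 3 in all 9 pairs after P0, and the list ranged from -0.82 to 6.52 in them.

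Pmel, the protein that forms the fibrils of the melanosome, rose from P0 to 1 W in both fibres and fell again by 3 W. It has 1 probe, above background on 24 arrays. In EN the arrays read 9.30, 8.82 and 9.36 at P0, 11.30, 10.96 and 10.44 at 1 W, 8.77, 9.12 and 8.98 at 3 W and 9.71, 9.70 and 9.47 at 5 W. In AN they read 8.40, 7.38 and 8.43 at P0, 10.06, 10.11 and 10.09 at 1 W, 8.00, 8.48 and 7.67 at 3 W and 8.83, 8.60 and 8.65 at 5 W. All 6 arrays of 1 W lay above all 18 arrays of the other ages. From P0 to 1 W the rise was 1.74 ± 0.26 in EN (adjusted p = 9.6e-05) and 2.02 ± 0.26 in AN (adjusted p = 2.1e-05). From 1 W to 3 W the level fell by 1.94 in EN (adjusted p = 2.7e-05) and by 2.03 in AN (adjusted p = 1.8e-05). Within slides, Pmel was higher at 1 W than at P0 by 2.0 and 1.36 in EN and by 1.66 and 2.19 in AN, on slides 1 and 3. No slide held both 1 W and 3 W arrays, so the fall between them has no such check. On slides 2 and 3, 5 W differed from 1 W by -1.25 and -0.75 in EN and by -1.28 and -1.49 in AN. On slide 4 the 5 W array was above the 3 W mean by 0.51 in EN and 0.60 in AN.

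Pmel was the only tested member with a lower signal in AN than in EN in all 12 array pairs, with pair differences from -1.44 to -0.36. The AN-EN difference was -1.09 ± 0.26 at P0 (adjusted p = 0.062), -0.82 ± 0.26 at 1 W (adjusted p = 0.098), -0.91 ± 0.26 at 3 W (adjusted p = 0.046) and -0.93 ± 0.26 at 5 W (adjusted p = 0.036). None was called. At P0 the p-value did not pass, at 1 W neither the p-value nor the fold change did, and at 3 W and 5 W the fold change was below 2. With the AN and EN arrays of a number as a random block, or with slide as a block, the P0 difference of Pmel was called.

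Dct, the enzyme that follows Tyr in the making of eumelanin, passed the test in no comparison by its brightest probe, and this probe divided the arrays by slide. The 8 arrays of slide 4 read from 3.79 to 7.86, and the other 16 arrays from 8.05 to 9.58, with no overlap. Such a separation, slide 4 below all other arrays, was seen in 2.52% of the tested probes. At 5 W the 3 efferent arrays read 8.07, 9.51 and 3.79 and the 3 afferent arrays 8.37, 9.17 and 6.05, in both cases with the lowest value on slide 4. The largest time difference was -2.18 ± 0.97 for 3 W against P0 in EN (adjusted p = 0.066), which passed with the AN and EN arrays of a number as a random block, and with slide as a term of the fit it was 2.19. On slide 3, which held no 3 W array, the 5 W array was 0.35 above the P0 mean in EN and 0.16 below it in AN.

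The second Dct probe, on another part of the transcript, gave another course. In EN it read 6.98, 6.31 and 6.04 at P0, 8.75, 9.05 and 8.76 at 1 W, 5.90, 5.94 and 5.29 at 3 W and 3.68, 2.63 and 2.67 at 5 W, the last 3 not above background. In AN it read 7.82, 6.90 and 6.86 at P0, 8.72, 9.18 and 8.64 at 1 W, 7.31, 7.33 and 6.67 at 3 W and 5.91, 4.51 and 5.84 at 5 W. The 1 W arrays were the highest of their fibre, as for Pmel. This probe was called higher at 1 W than at P0 in EN (2.41 ± 0.38, adjusted p = 0.00015) and in AN (1.65 ± 0.38, adjusted p = 0.004), and higher in AN than in EN at 3 W (1.39 ± 0.38, adjusted p = 0.035). At 5 W it was at least 1.30-fold higher in AN (adjusted p = 0.00057), a bound that rests on 2 afferent arrays above background. The probes of Dct correlated at r = 0.37 over 24 arrays, so a course of Dct cannot be given from these data without naming the probe.

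**Figure D3:**
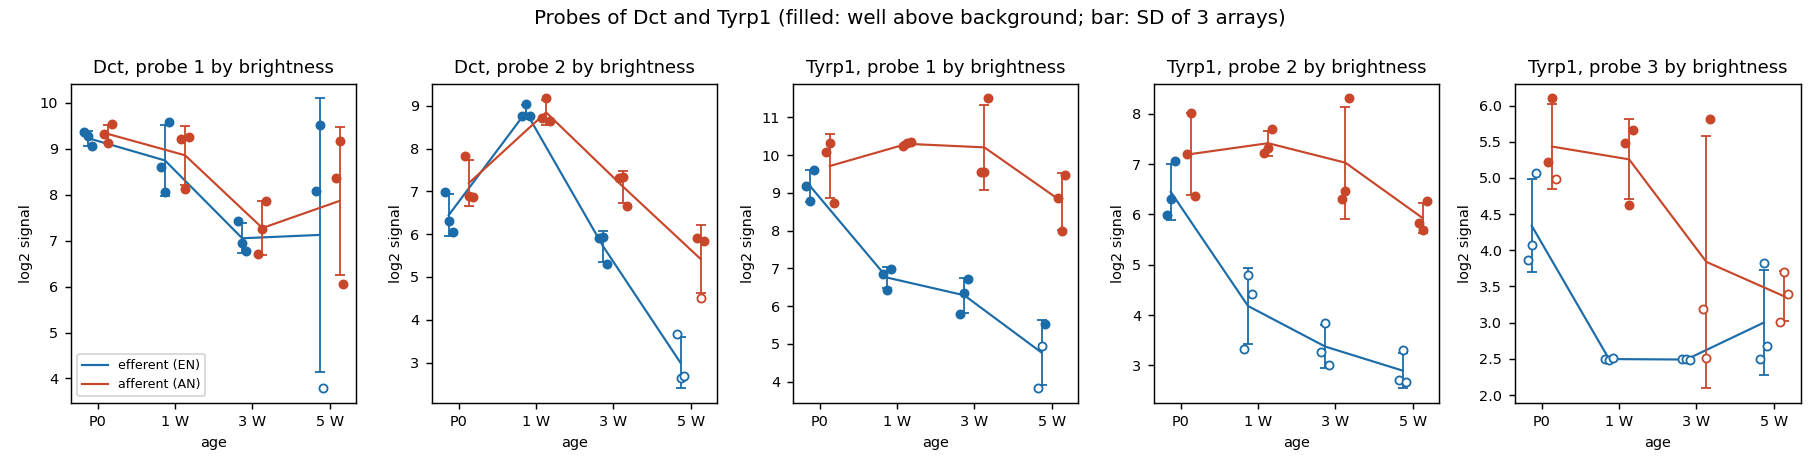
Log2 signal (vertical axis) by age (horizontal axis) for the 2 probes of Dct and the 3 probes of Tyrp1, in EN (blue) and AN (red). Points are arrays, filled where well above background, lines join group means and bars are the SD of 3 arrays. The Dct probes differ in course, and the mean afferent signal lies above the efferent one at each age after P0 in the 2 brighter Tyrp1 probes.

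Mlana had no value that could be tested. Its brightest probe read from 3.41 to 5.27 over the 24 arrays, near the lowest signals above background. Its AN-EN pair differences ran from -0.79 to 0.58, with AN higher in 5 of 12 pairs.

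Mitf was called higher than P0 at the later ages in the afferent fibres, and in the efferent fibres it stayed below the fold limit. The P0 arrays read 10.85, 9.93 and 10.38 in AN and 11.56, 11.16 and 11.21 in EN, with no overlap. At 1 W the arrays read 12.05, 12.30 and 12.05 in AN and 12.21, 12.19 and 12.18 in EN, and from then on the groups overlapped. In AN the difference from P0 was 1.74 ± 0.20 at 1 W (adjusted p = 7.7e-06), 1.61 ± 0.20 at 3 W (adjusted p = 3.3e-06) and 1.36 ± 0.20 at 5 W (adjusted p = 2.0e-05). In EN it was 0.88, 0.75 and 0.41, below the fold limit. At P0 Mitf was lower in AN by a difference of -0.92 ± 0.20 (adjusted p = 0.042), also below the fold limit. The change of the AN-EN difference since P0 was 0.86 at 1 W, 0.86 at 3 W and 0.94 at 5 W, and none passed the test. All 4 Mitf probes were called higher than P0 in AN at the 3 later ages, with differences of 1.36 to 2.86, and the fourth was also called in EN (1.91, 1.92 and 1.74). Genes of macrophages, which use Mitf, rose as well, with 6, 7 and 9 of 9 called higher than P0 in EN and 3, 6 and 6 in AN at 1 W, 3 W and 5 W, and with Cd163 called lower in both fibres at 1 W. Their summed signal ran from 14.54 to 14.87 at P0 and from 16.29 to 16.53 at 5 W in AN, and from 14.57 to 14.63 and from 16.86 to 16.93 in EN. Of 12 Schwann cell genes, 3, 5 and 5 were called higher than P0 in AN at 1 W, 3 W and 5 W and 0, 2 and 3 lower, and 2, 4 and 3 higher and 2, 2 and 3 lower in EN. The log2 values of each list gene were also standardised over the 24 arrays and averaged over the list. This mean level, which is not the summed signal, correlated with Mitf at r = 0.76 for the Schwann cell genes. For the macrophage genes r was 0.59, both as descriptions. Of 7 tested mast cell genes none was called higher than P0, and Cpa3, Cma1 and Mcpt4 were called lower at 3 W and 5 W in both fibres. Of all tested probes, 8.58%, 27.8% and 27.8% were called against P0 in AN at 1 W, 3 W and 5 W, in either direction. In EN it was 11.9%, 30.5% and 29.9%. The part of these cell types in the Mitf values was not tested.

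Kit, the receptor of Kit ligand, was higher in AN than in EN in all 12 array pairs by its brightest probe, by 0.14 to 1.64. By its other probes it was higher in 10 and 9 of the 12 pairs, and the third probe was lower in AN in all 3 pairs of 1 W, by 0.25 to 0.27. At 3 W the afferent arrays read 10.74, 10.67 and 11.25 and the efferent arrays 9.32, 9.64 and 9.78. At 5 W the afferent arrays read 10.44, 10.30 and 10.47 and the efferent arrays 8.97, 8.66 and 9.35. The groups did not overlap at either age. The AN-EN difference was 0.58 ± 0.18 at P0 (adjusted p = 0.23), 0.27 ± 0.18 at 1 W (adjusted p = 0.60), 1.31 ± 0.18 at 3 W (adjusted p = 0.00028) and 1.41 ± 0.18 at 5 W (adjusted p = 0.00011). Kit fell in EN by 1.29 from P0 to 5 W (adjusted p = 9.7e-06), while in AN it differed from P0 by -0.30, 0.02 and -0.46. By the third probe the EN difference of 5 W from P0 was -0.92 and was not called. Both other Kit probes were called higher in AN at 3 W and 5 W, with differences of 1.23 to 1.41. The change of the difference since P0 did not pass the test for Kit (0.83 ± 0.26 at 5 W, adjusted p = 0.16). Kitl, the gene of its ligand, was above background on 24 arrays and passed the test in no comparison.

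Ednrb, the endothelin receptor of neural crest derivatives, fell with age in both fibres. The afferent arrays read 13.19, 13.68 and 13.79 at P0, 12.72, 12.53 and 13.05 at 1 W, 9.90, 9.73 and 10.05 at 3 W and 9.63, 9.47 and 9.40 at 5 W. The efferent arrays read 12.94, 13.19 and 13.55 at P0, 12.49, 12.51 and 12.60 at 1 W, 8.68, 8.42 and 8.63 at 3 W and 8.02, 8.31 and 8.07 at 5 W. From P0 to 5 W Ednrb fell by 5.09 in EN (adjusted p = 4.6e-13) and by 4.05 in AN (adjusted p = 3.7e-12). Most of it lay between 1 W and 3 W, where the level fell by 3.96 in EN (adjusted p = 2.5e-10) and by 2.87 in AN (adjusted p = 6.2e-09). On slide 3, with no 3 W array, the 5 W array was lower than the P0 mean by 5.06 in EN and by 4.26 in AN on the log2 scale. All 3 Ednrb probes were called lower at 3 W and 5 W in both fibres, and they correlated at r = 0.96 to 0.99. Of 12 Schwann cell genes, 3 were called lower and 3 higher than P0 at 5 W in EN, where 29.9% of all probes were called in either direction. Those lower were Fabp7 and Gap43, genes of immature Schwann cells and growing axons, and Erbb3, a neuregulin receptor (fell by 4.72, 4.77 and 1.46), and those higher were Mbp, a myelin protein, S100b and Cdh19 (2.66, 2.96 and 1.78). In AN 3 were called lower, Fabp7 and Gap43 among them, and 5 higher, against 27.8% of all probes in either direction.

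The afferent level of Ednrb exceeded the efferent one in all 12 pairs, by 0.02 to 1.61. The AN-EN difference was 0.33 ± 0.17 at P0 (adjusted p = 0.78), 0.23 ± 0.17 at 1 W (adjusted p = 0.67), 1.32 ± 0.17 at 3 W (adjusted p = 0.00016) and 1.37 ± 0.17 at 5 W (adjusted p = 9.1e-05). The second Ednrb probe gave 1.33 at 3 W and 1.14 at 5 W, both called. The third was above background on no efferent array at 3 W and 5 W, was not called at 3 W (adjusted p = 0.082), and at 5 W it passed (adjusted p = 0.039) with no fold that can be bounded. The difference was larger than at P0 by 1.04 ± 0.25 at 5 W (adjusted p = 0.047), and this call was lost when any 1 of 19 of the 24 arrays was left out, and was kept without P0 AN replicate 3, P0 EN replicate 1, or replicate 3 of AN at 1 W, 3 W or 5 W. Without the single arrays it ranged from 0.86 to 1.18. The call was also lost with normexp background correction, with no filter on dim probes, with array weights, without the arrays of slide 4 and with either other probe. The 5 W calls of Kit and Ednrb were lost when only the 6 arrays of that age were fitted. Of the Ednrb ligands, Edn3 was above background on 6 arrays and was not tested, and Edn1 rose after 1 W in both fibres, by 2.49 in EN and 2.67 in AN from 1 W to 3 W.

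**Figure D4:**
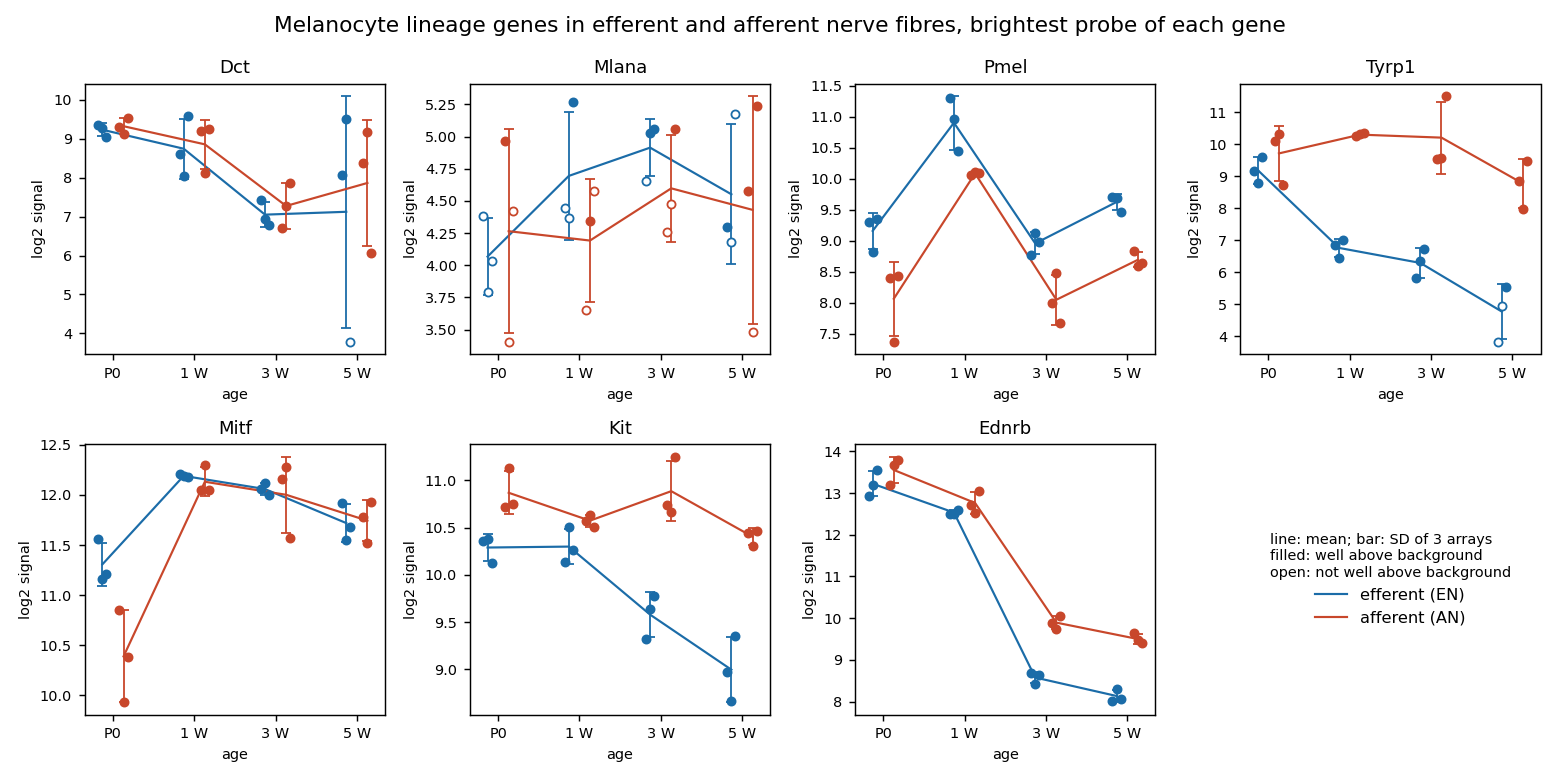
Log2 signal (vertical axis) by age (horizontal axis) of the brightest probe of each of the 7 genes in EN (blue) and AN (red). Points are arrays, filled where well above background, lines join group means and bars are the SD of 3 arrays. Ednrb falls after 1 W in both fibres, Tyrp1 falls in EN, Pmel peaks at 1 W and Mlana lies near background.

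Counted over the 6 tested genes, AN against EN gave 0 calls at P0, where 0.327% of all tested probes were called. At 1 W it gave 1 call, Tyrp1, against 2.79% of all probes. At 3 W and at 5 W it gave 3 calls each, Tyrp1, Kit and Ednrb, all higher in AN, against 3.11% and 3.31% of all probes called in either direction and 2.23% and 2.49% called higher. The median AN-EN difference over the 6 genes was 0.21 at P0, then 0.17, 0.76 and 1.05 at the later ages, against 0.01, -0.06, -0.03 and -0.03 over all tested probes. At P0 no member passed in limma, and 1 of the 6, Pmel, passed the same fold limit with p below 0.05 before adjustment, as 1.12% of all probes did. The afferent and efferent comparisons with P0 share no arrays with each other, but the ages of a fibre share their P0 arrays.

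**Figure D5:**
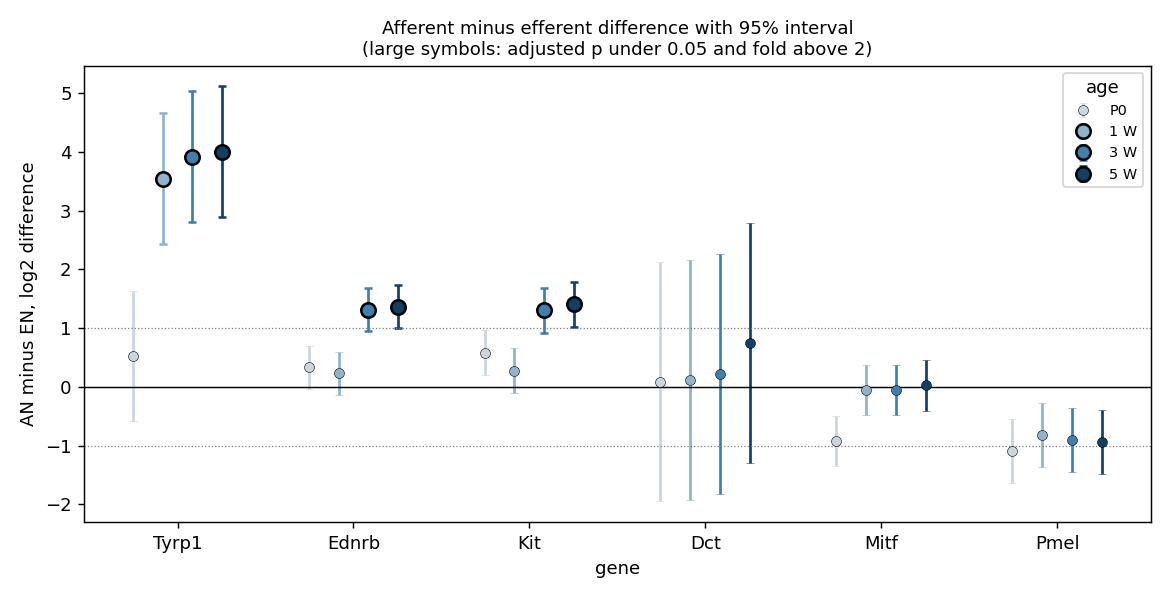
AN minus EN difference of mean log2 signals (vertical axis) of the 6 tested genes at the 4 ages, with 95% intervals from the limma fit. Large symbols passed adjusted p below 0.05 and a fold change above 2, dotted lines mark 2-fold. Tyrp1 passed at 1 W, 3 W and 5 W, Kit and Ednrb at 3 W and 5 W, and Pmel lay below 0 at every age.

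Against P0 in EN, 2 of the 6 genes were called at 1 W, where 11.9% of all probes were. At 3 W it was 2 genes (30.5%) and at 5 W 3 genes (29.9%). In AN it was 2 genes at each later age, against 8.58% of all probes at 1 W and 27.8% at 3 W as well as at 5 W. With 6 genes these shares are not far from the background from 3 W on, and nothing is read from them. From 1 W to 3 W, Pmel and Ednrb were called lower in both fibres, against 11.7% of probes in EN and 12.6% in AN in either direction and 6.03% and 6.37% called lower. From 3 W to 5 W, 0 of the 6 genes were called in either fibre by limma, against 1.12% in EN and 1.68% in AN, and before adjustment Tyrp1 alone of the 6 passed both limits, in each fibre, where 3.85% of probes did in EN and 3.95% in AN. The change of the AN-EN difference since P0 was called for 0 genes at 1 W (0.0632% of probes), for Tyrp1 at 3 W (0.525%) and for Tyrp1 and Ednrb at 5 W (0.931%).

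The members did not move as 1 group over the 24 arrays. Tyrp1 and Kit correlated at r = 0.89, Dct and Ednrb at 0.65 and Tyrp1 and Pmel at -0.41, as descriptions over arrays that share slides and groups. Dct entered here, and in the mean that follows, by its brightest probe, which divided the arrays by slide. The genes most like the mean of Dct, Pmel and Tyrp1 were Cox15 (r = 0.91), Kansl2 (0.89) and Tubgcp3 (0.86), and none of the 10 most alike was in the pigment gene list. Most like Mitf were Mfap3l (0.97), Tmem134 (0.96) and Cyp51 (0.95). Most like Kit were Kcna6 (0.94), Gria4 (0.92) and Gfra2 (0.92). Most like Ednrb were Postn, Ckap2 and Cenpi (0.98 each). Cntn1 and Gfra2 were among the 3 most like Tyrp1 alone (0.94 each), chosen after the values were seen.

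Among the other pigment genes, 10 of 13 were tested. In AN against EN, 1 was called higher at 1 W (Myo5a, 1.24), 1 at 3 W (Rab32, 1.09) and 1 at 5 W (Gpnmb, 2.62), and 0 at P0. Of all tested probes, 0.327% were called at P0 and 2.79% at 1 W in either direction. At 3 W and 5 W, 2.23% and 2.49% were called higher. The median AN-EN difference of the 10 pigment genes lay between -0.09 and 0.26. At 3 W against P0, 2 of the 10 were called higher and 2 lower in EN, and 1 higher and 1 lower in AN. At 5 W it was 2 higher and 3 lower in EN, and 3 higher and 1 lower in AN. Of all probes, 30.5% and 27.8% were called at 3 W and 29.9% and 27.8% at 5 W, in either direction. Rab38 was called lower than P0 at 3 W and 5 W in both fibres, and at 5 W it fell by 2.35 in EN and fell by 2.25 in AN, while Gpr143 and Mlph were called higher at 5 W in both. Of 9 transcription factors of the lineage other than Mitf, all tested, Pax3, which acts upstream of Mitf, was called higher in AN at every age after P0 (1.70, 3.02 and 2.79), and it was the only one of the 9 called in AN against EN. At 5 W against P0, 3 of the 9 were called lower and 1 higher in EN, and 4 lower and 2 higher in AN, where 29.9% and 27.8% of all probes were called in either direction. In EN Pax3 fell by 3.76, Tfap2a fell by 2.31 and Tfap2b fell by 4.13, while Sox9 rose by 1.76. In AN the same 3 and Snai2 were lower, and Sox9 (2.07) and Sox10 (1.13) were higher. Sox10, which neural crest glia and melanocytes both need, was above background on 24 arrays and differed between AN and EN by 0.09 to 0.56, below the threshold. Of 6 tested ligands and partners of Kit and Ednrb, 0 were called in AN against EN at any age.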

How the data were processed

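Gene expression was measured on 24 one-colour Agilent mouse arrays, 3 in each of 8 groups of nerve fibre and age, taken from the labels. The authors deposited scanner intensities of every spot, written by Agilent Feature Extraction 10.7.1.1 per the labels, and a table of log2 values that the authors' methods describe as quantile normalized. The table was used as deposited, and the scanner intensities served for background marks and alternatives. Probes came from the scanner files (mm9). Of 56605 gene probes, 36409 were tested with limma 3.58.1 in R 4.3.3, with 8 group means fitted together (16 residual degrees of freedom) and Benjamini-Hochberg adjustment over all tested probes. The study's thresholds, p below 0.05 and fold change above 2, were used on adjusted p, since the methods do not say whether p was adjusted. Arrays of AN and EN with the same number at an age deviated together (r of 0.107 to 0.646 in 12 pairs), the least at 3 W (0.107 to 0.214). The p-values and SE given for AN against EN come from the main fit, which left this pairing out. It entered as a replicate block only in alternatives. The members and the 12 gene lists were chosen with earlier results of these data known, and an item of one list is not reported here. The text names the 7 genes, genes of the lists, and those of highest correlation with them. The fit was tested on simulated data. A probe is measured only above 3.71 to 5.87 (log2), the lowest signal above background on an array, and the number of arrays limits the precision.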

Additional observations from a re-analysis of the deposited data

Results flagged for a closer look

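In 3 results the AN-EN difference at a later age was tested against that at P0 and passed limma's adjusted p below 0.05 with a fold change above 2. For Tyrp1 the AN-EN difference grew by 3.40 at 3 W and by 3.48 at 5 W (log2), and for Ednrb by 1.04 at 5 W. Each call was lost without some single arrays and under other choices, as given beside the values of these genes, and the direction was the same without any 1 of the 24 arrays. Groups of 3 arrays are too small for a test of single outlying arrays.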

How the results depend on the processing

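Of the 27 called results of the members, 944 of 1008 values under alternatives kept direction and side of the threshold, 63 kept the direction only and 1 reversed. Of the 75 uncalled results, 65 of 2776 values passed in the same direction and 11 passed in the opposite direction. Calls at P0 between AN and EN went from 0 to 1 with only probes above background on all 24 arrays, with slide as a block, with the random replicate block of AN and EN, with array weights, with unadjusted p and with no fold limit, and ranged from 0 to 2 without single arrays. At 1 W they went from 1 to 0 with only probes above background on all arrays, which leaves out Tyrp1, and ranged from 1 to 2 without single arrays. At 5 W they went from 3 to 0 with the 6 arrays of that age alone, a fit of fewer arrays. Calls against P0 in EN went from 7 to 4 with only probes above background on all arrays and to 11 with no fold limit. Calls between later ages went from 4 to 9 with slide as a block, to 7 with array weights and to 8 with the second Dct probe. Calls on the change of the AN-EN difference went from 3 to 1 with normexp, with only probes above background on all arrays and with either other Tyrp1 probe, and to 0 with no filter, and ranged from 0 to 3 without single arrays. The cause was not tested.

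With slide as a block, Dct reversed to 2.19 (3 W against P0, EN), 2.32 (same, AN), 2.30 (3 W against 1 W, EN), 2.41 (same, AN), -2.5 (5 W against 3 W, EN) and -1.98 (same, AN). The second Dct probe reversed to 2.41 and 1.65 (1 W against P0, EN and AN) and to -2.72 and -1.68 (5 W against 3 W, EN and AN), where no 5 W EN array was above background and the EN fall is bounded only as at least 1.59-fold. The third Tyrp1 probe reversed to -1.59 (3 W against P0, AN) and -0.73 (change of the AN-EN difference at 5 W), resting on groups with 0 to 2 of 3 arrays above background, so these signs show no direction. The fixed replicate block gave 0, 1, 3 and 3 calls between AN and EN at P0 and the later ages in turn, and changed no count of calls. Leaving out the arrays of slide 4 was chosen after seeing the data.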

Other observations

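Trpm1 passed the test for 5 W against P0 in EN with a difference of -3.91 ± 1.42 (adjusted p = 0.026 by limma), and this rests on 1 array. Its 5 W EN arrays read 2.67, 10.6 and 11.8, with the lowest not above background, while the other 7 groups had means of 11.3 to 12.3.

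Marker lists of other cell types were counted in AN against EN at 5 W. Higher in AN were 2 of 12 Schwann cell genes, 3 of 6 astrocyte genes and 2 of 6 oligodendrocyte genes, where 2.49% of all tested probes were called higher. None of 7 endothelial, 6 meningeal fibroblast, 9 macrophage or 7 mast cell genes was called by limma. Of 5 motor neuron genes 1 was lower in AN.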
